A study of Mus musculus with 5 samples.

Results

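The alpha and beta crystallins measured in retina were 10 genes. They were Cryaa and Cryab, the acidic beta crystallins Cryba1, Cryba2 and Cryba4, the basic beta crystallins Crybb1, Crybb2 and Crybb3, and the single-locus gamma-type members Crygs and Crygn. Each symbol named 1 of the 33635 genes in the deposited count table. The members were chosen by their levels in these same libraries, which had already shown them far above all other libraries in 1 FDM library. The levels and the FDM difference of the members are therefore given as a description, with no test.

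Retinas came from wild-type male C57BL/6J mice at P42. In form-deprivation myopia (FDM), a diffuser goggle fixed to the head blurred the right eye for 2 weeks from P28, and the uncovered left eye of goggled mice was the control, so no retina came from a mouse without a goggle. FDM 1 and FDM 3 were the 2 goggled eyes, and Control 1, Control 2 and Control 3 the 3 uncovered eyes of 3 mice. The sample label numbers FDM 3 as replicate 2, and the column of the table and the mouse list of the study number it 3. Refractive errors in the labels were 0.976 in FDM 1 and 0.2745 in FDM 3, against 2.4455, 3.1505 and 2.465 in Control 1, Control 2 and Control 3. Libraries held 40599047 to 56534931 estimated counts, and levels are counts per 1e6 counts of the library scaled by TMM (CPM). The labelled tissue held its markers, with a summed level of 51020 to 63832 CPM over 13 retina genes, among them Gnat1 (10085 to 13719 CPM). FDM 3 stands apart in the genes described here.

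Crystallins are the abundant soluble proteins of the eye lens. The alpha crystallins are small heat shock proteins that bind unfolding proteins, and beta and gamma crystallins share a fold built from Greek key motifs and pack densely in lens fibre cells. Several are also transcribed at low levels in neural retina, where Cryab is found in glia and where crystallin transcripts have been described as responsive to injury and light. In lens, crystallin genes are switched on by Pax6, large Maf proteins, Sox proteins and Prox1. Large Maf proteins bind elements that hold the letters TGCTGA.

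The promoter windows of the members, which all had their highest level in FDM 3, were compared as a description. A role of promoter letters in that level was not tested. RefSeq windows on GRCm38.p6 matched 9 of 10 members, all but Cryab, and the 250 bases before the RefSeq start site were searched on both strands. The letters TGCTGA, or their reverse complement TCAGCA, were in 8 of 9 member windows and in 16.1% of all 32851 windows of that length. The letters TATAAA, or TTTATA, were in 3 of 9, against 12.4% of all windows. GAANNTTC, the core of the heat shock element and its own reverse complement, was in 0 of 9, against 6.69%. No matches overlapped each other in the member windows, and a match of letters is a description, not a binding site. In the windows below, written in the sense of the gene, capitals mark TGCTGA or TCAGCA and TATAAA. Cryaa is shown for its level, Cryba4 for its 3 matches, Cryba1, Crybb1 and Crygs for holding both motifs, and Crybb2 for holding neither.
Cryaa, chr17:31677681-31677930, + strand: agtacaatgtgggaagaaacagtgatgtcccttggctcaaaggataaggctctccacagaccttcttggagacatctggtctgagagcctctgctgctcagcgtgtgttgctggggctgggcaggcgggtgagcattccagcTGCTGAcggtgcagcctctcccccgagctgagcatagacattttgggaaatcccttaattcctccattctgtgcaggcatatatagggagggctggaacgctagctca
Cryba1, chr11:77725294-77725543, - strand: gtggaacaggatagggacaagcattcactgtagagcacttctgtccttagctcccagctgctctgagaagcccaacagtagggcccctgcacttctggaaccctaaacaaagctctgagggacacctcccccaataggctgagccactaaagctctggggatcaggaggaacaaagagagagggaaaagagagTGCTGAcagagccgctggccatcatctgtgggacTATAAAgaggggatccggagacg
Cryba4, chr5:112252519-112252768, - strand: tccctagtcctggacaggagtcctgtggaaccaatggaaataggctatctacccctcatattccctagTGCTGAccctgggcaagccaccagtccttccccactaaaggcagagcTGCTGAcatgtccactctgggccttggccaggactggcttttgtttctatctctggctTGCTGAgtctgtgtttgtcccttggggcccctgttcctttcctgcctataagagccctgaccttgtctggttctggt
Crybb1, chr5:112255570-112255819, + strand: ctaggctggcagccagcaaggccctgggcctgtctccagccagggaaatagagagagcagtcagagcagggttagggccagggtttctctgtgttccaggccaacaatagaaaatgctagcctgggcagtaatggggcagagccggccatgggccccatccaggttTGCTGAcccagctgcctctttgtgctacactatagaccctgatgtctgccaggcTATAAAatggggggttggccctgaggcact
Crybb2, chr5:113070118-113070367, - strand: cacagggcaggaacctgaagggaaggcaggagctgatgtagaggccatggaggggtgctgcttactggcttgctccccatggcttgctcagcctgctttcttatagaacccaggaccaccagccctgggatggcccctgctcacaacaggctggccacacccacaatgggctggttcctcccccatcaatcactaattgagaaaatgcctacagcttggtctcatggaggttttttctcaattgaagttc
Crygs, chr16:22811411-22811660, - strand: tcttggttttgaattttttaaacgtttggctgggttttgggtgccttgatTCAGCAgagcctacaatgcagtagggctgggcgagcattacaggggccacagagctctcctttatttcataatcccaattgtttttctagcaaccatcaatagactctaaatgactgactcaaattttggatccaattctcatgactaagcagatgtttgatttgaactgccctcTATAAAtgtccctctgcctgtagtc
In Cryba1 the TGCTGA match began 57 bases before the start site and in Crybb1 84 bases before it. In Cryba4 the matches began 182, 135 and 77 bases before the start. TATAAA began 23, 30 and 25 bases before the start in Cryba1, Crybb1 and Crygs. GENCODE M21 places the gene start inside the window for Cryaa (31677807), Crybb1 (112255815), Crygs (22811577) and Crygn (24758008, window not shown). The Cryaa TGCTGA and the Crygs TATAAA therefore lie within the GENCODE gene.

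Cryaa, the alpha A chain and a lens chaperone, lies on chromosome 17 (31677807 to 31681733, + strand, GRCm38). Its count was 47021 in FDM 3 and 5 in FDM 1, against 5, 349 and 199 in Controls 1 to 3. The level was 977 CPM in FDM 3 and 0.115 CPM in FDM 1, with 0.125, 6.12 and 4.19 CPM in Controls 1 to 3. FDM 3 was thus far above all controls, while FDM 1 was no higher than any of them and had the same count as Control 1. The level in FDM 3 was 160 times that in Control 2 (95% interval 144 to 178) and 233 times that in Control 3 (203 to 270), the uncovered eye of the same mouse. These intervals, and all intervals given here, are exact and cover counting error only.

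Cryab, the alpha B chain, is a stress-inducible chaperone made in many tissues, among them glia and muscle. It lies on chromosome 9 (50751325 to 50756636, + strand). The count was 12354 in FDM 3 and 1101 in FDM 1, against 923, 1562 and 1635 in Controls 1 to 3. As levels these were 257 CPM in FDM 3, 25.4 CPM in FDM 1 and 23.1, 27.4 and 34.4 CPM in Controls 1 to 3. Cryab was the only member with a level above 10 CPM in every library. It was also the only one whose level changed less than 2-fold among the other 4 libraries, from 23.1 to 34.4 CPM, a ratio of 1.49. FDM 3 was 10.1 times FDM 1 (9.51 to 10.8), 9.38 times Control 2 (8.89 to 9.89) and 7.46 times Control 3 (7.08 to 7.86), and its ratio to Control 2 was the smallest among the members.

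The Cryab gene overlaps Hspb2, a muscle-enriched small heat shock gene on the opposite strand, by 1030 bases. The library kit does not mark strand, and 14.8% of the 31-base words in Cryab transcripts were also in Hspb2 transcripts, so some reads of the pair cannot be told apart. Hspb2 had 20 counts in FDM 3 and 4 in FDM 1, against 17, 25 and 28 in Controls 1 to 3, and it did not share the FDM 3 level of its neighbour. Control 3, the highest of the other 4 libraries for Cryab, held skeletal muscle transcripts. All 6 muscle genes were highest there, with a summed level of 51.2 CPM against 7.19 and 7.70 CPM in the other controls and 7.33 and 8.63 CPM in the FDM libraries, and Myh4 and Tnnt3 were at 0 in a library. Of the muscle genes with the highest mean levels, Ckm had 571 counts in Control 3 and 184 to 261 elsewhere, and Acta1 had 552 against 60 to 107. The part of muscle in the Cryab level of Control 3 was not tested.

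Cryba1 encodes both beta A3 and beta A1 crystallin from 1 mRNA, and lies on chromosome 11 (77718615 to 77725283, - strand). It had 16057 counts in FDM 3 and 24 in FDM 1, against 16, 131 and 88 in Controls 1 to 3. FDM 3, at 334 CPM, was 145 times Control 2 (122 to 174), and FDM 1, at 0.553 CPM, lay within the controls (0.401 to 2.30 CPM). Cryba2, a second acidic chain on chromosome 1 (74889934 to 74893143, - strand), had 4345 counts in FDM 3, 6 in FDM 1 and 6, 47 and 32 in Controls 1 to 3. Its FDM 3 level of 90.3 CPM stood above 0.138 CPM in FDM 1 and 0.150 to 0.824 CPM in the controls. Cryba4 (chromosome 5, 112246493 to 112252518, - strand) had 3657 counts in FDM 3, 1 in FDM 1 and 1, 65 and 20 in Controls 1 to 3. All acidic chains were thus high in FDM 3 and intermediate in Control 2 and Control 3, and for Cryba4 the counts in FDM 1 and Control 1 were below the 3-count limit taken as the floor.

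Crybb1, a basic chain with long terminal arms, lies 3296 bases from Cryba4 and is read from the other strand (chromosome 5, 112255815 to 112269585, + strand). It had 3045 counts in FDM 3 and 20 in FDM 1, against 20, 87 and 38 in Controls 1 to 3. These neighbours did not keep 1 proportion: Crybb1 had 20 counts for 1 of Cryba4 in both FDM 1 and Control 1, and fewer counts than Cryba4 in FDM 3. Crybb2, the major basic beta chain of the adult lens, lies 5721 bases from Crybb3 on the same strand (113058258 to 113070117 for Crybb2 and 113075839 to 113081584 for Crybb3). Crybb2 reached 19521 counts in FDM 3 but 1 in FDM 1, with 4, 300 and 64 in Controls 1 to 3. Crybb3 reached 3548 counts in FDM 3 and kept 41 in FDM 1, with 35, 133 and 50 in Controls 1 to 3. Crybb2 was thus nearly absent from FDM 1 and Control 1, where Crybb3 was the best counted member after Cryab. FDM 3 was 77.1 times Control 2 for Crybb2 (68.8 to 86.7), 41.5 times for Crybb1 (33.5 to 52.0) and 31.6 times for Crybb3 (26.6 to 37.9).

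Crygs, gamma S crystallin, is a lens fibre protein of the adult (chromosome 16, 22805203 to 22811577, - strand). It had 8797 counts in FDM 3 and 3 in FDM 1, against 2, 114 and 26 in Controls 1 to 3. Its level of 183 CPM in FDM 3 was 91.5 times that in Control 2 (76.0 to 111). Crygn, gamma N crystallin, joins features of beta and gamma crystallin genes (chromosome 5, 24751003 to 24758008, - strand). It was the rarest member, with 102 counts in FDM 3, 1 in FDM 1 and 4, 10 and 17 in Controls 1 to 3, and its level of 2.12 CPM in FDM 3 was 5.92 times that in Control 3 (3.52 to 10.6), or 1.27 times on the normalized counts of the authors. Crygs therefore followed the beta chains, while Crygn was, with Cryab, highest in Control 3 among the other 4 libraries. For Crygn the level in Control 2 was 0.490 times that in Control 3 (0.201 to 1.13). The interval holds 1, so the order of these controls is not settled for Crygn.

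**Figure D1:**
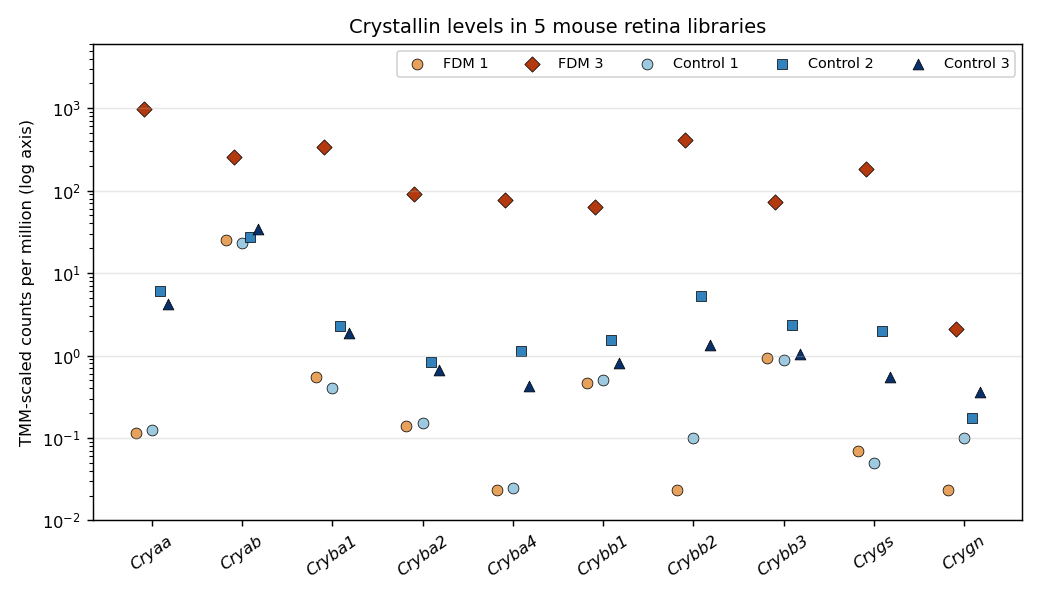
TMM-scaled CPM (log axis) of each member in each library, with 1 point per library. FDM 3 is the highest point for all 10 members, Cryab is the only gene above 10 CPM in every library, and Control 2 and Control 3 lie above FDM 1 and Control 1 for Cryaa (6.12 and 4.19 against 0.115 and 0.125 CPM).

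A member was said to follow 1 library where its highest level was at least 10 times the median of the other 4, and to be steady where its highest level was at most 2 times its lowest. By these limits 9 members followed FDM 3, from Crygn, with a ratio of 15.4, to Crygs, with a ratio of 593. Cryab lay in between with a ratio of 9.73, just outside the limit of 10, and 0 members were steady over the 5 libraries. Without FDM 3, Cryab was steady, and Cryaa, Cryba4, Crybb2 and Crygs followed Control 2 by the median of the remaining libraries. That median does not set Control 2 apart from Control 3. The level in Control 2 was 1.46 (Cryaa), 2.71 (Cryba4), 3.65 (Crygs) and 3.90 (Crybb2) times that in Control 3. The remaining 5 members then lay in between, with a highest level 2.66 (Crybb3), 3.31 (Crybb1), 5.73 (Cryba1), 5.96 (Cryba2) and 15.5 (Crygn) times the lowest. Control 2 was the highest of the other 4 libraries for 8 members and Control 3 for Cryab and Crygn. For Crygn, Cryba1 and Cryba2 the interval of the ratio of Control 2 to Control 3 held 1.

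The members together took 0.249% of the counts in FDM 3 and 0.00250% to 0.00495% in the other libraries. The sum was 118447 counts in FDM 3 and 1203 in FDM 1, against 1016, 2798 and 2169 in Controls 1 to 3. Cryab made up 91.5% of this sum in FDM 1 (89.8 to 93.0), 90.8% in Control 1 (88.9 to 92.5), 55.8% in Control 2 (54.0 to 57.7), 75.4% in Control 3 (73.5 to 77.2) and 10.4% in FDM 3 (10.3 to 10.6). The sum of a crystallin list was thus mostly Cryab in 4 libraries and mostly other members in FDM 3. Cryaa made up 39.7% in FDM 3, 12.5% in Control 2 (11.3 to 13.8) and 9.17% in Control 3 (7.99 to 10.5), against 0.416% in FDM 1 and 0.492% in Control 1. There were 3.81 Cryaa counts for each Cryab count in FDM 3, 0.223 in Control 2, 0.122 in Control 3 and about 0.005 in FDM 1 and Control 1 (0.00454 and 0.00542).

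In FDM 3 the next shares were Crybb2 with 16.5%, Cryba1 with 13.6% and Crygs with 7.43%. Cryba2, Cryba4, Crybb1 and Crybb3 each took between 2.57% and 3.67%, and Crygn took 0.0861%. The share of Crybb3 stayed in single digits throughout, with 3.41% in FDM 1, 3.44% in Control 1, 4.75% in Control 2, 2.31% in Control 3 and between 2.90% and 3.09% in FDM 3, although its level in FDM 3 was 31.6 times that in Control 2. In Control 1 and FDM 1, Crybb3, Cryba1 and Crybb1 were the only members besides Cryab above 1% of the sum.

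**Figure D2:**
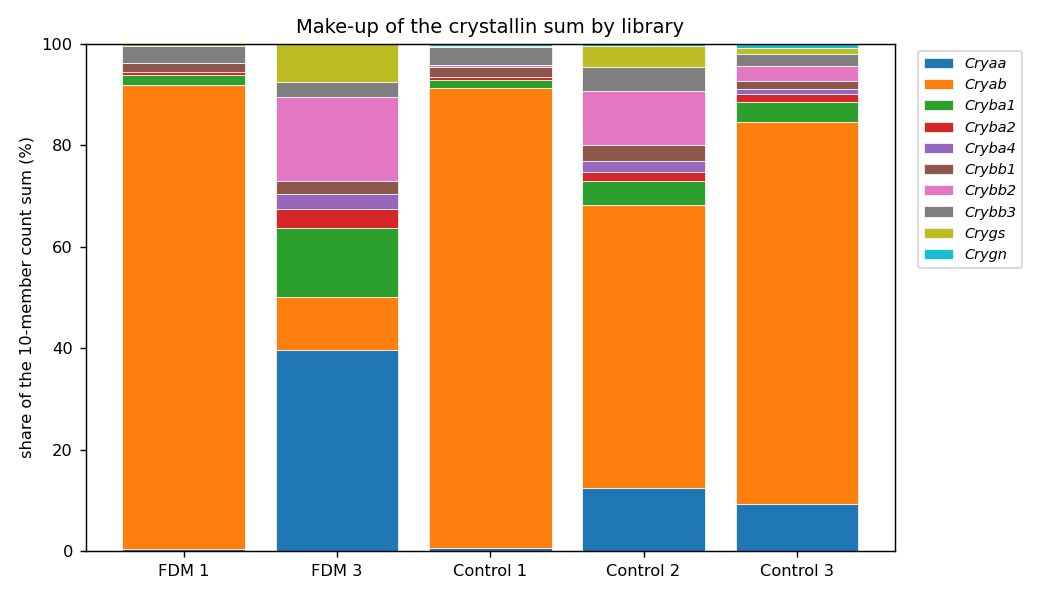
Share of the summed counts of the 10 members taken by each member (percent, stacked bars) in each library. Cryab fills 91.5% and 90.8% of the bars of FDM 1 and Control 1 and 10.4% of the bar of FDM 3, where Cryaa takes 39.7%.

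Levels per length order the members differently from counts, since the exons of a gene covered 802 (Crygn) to 2333 bases (Crybb3). These lengths join the exons of all annotated transcripts. Crybb2 covered 2012 bases against 906 in its longest transcript, while Crygs covered 875 in both. The order below therefore depends on the length chosen, and levels per transcript length were not computed. Per kilobase of exon, FDM 3 held 471 CPM of Cryaa, 209 of Cryba1, 209 of Crygs, 202 of Crybb2 and 174 of Cryab. Cryba4, Cryba2, Crybb1 and Crybb3 followed with 90.7, 75.7, 64.3 and 31.6 CPM per kilobase, and Crygn was lowest with 2.64. In Control 1 the order was Cryab with 15.6 CPM per kilobase, then Crybb1 with 0.508, Crybb3 with 0.376 and Cryba1 with 0.251, and the other 6 members were at 0.126 or lower. FDM 1 gave Cryab, Crybb1, Crybb3 and Cryba1 at 17.2, 0.468, 0.405 and 0.347 CPM per kilobase. Crybb1 and Crybb3, first among the beta chains in FDM 1 and Control 1, were thus the last of them in FDM 3. Crybb1, Crybb3 and Cryba1 rested on 16 to 41 counts in FDM 1 and Control 1, so neighbours in that part of the order are not separated at this depth.

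With Cryab set aside, the mix of the 9 other members was compared between libraries. Crybb3 was 40.2% of these counts in FDM 1 (30.6 to 50.4) and 37.6% in Control 1 (27.8 to 48.3), but 10.8% in Control 2 (9.09 to 12.6), 9.36% in Control 3 (7.03 to 12.2) and 3.34% in FDM 3 (3.24 to 3.45). Crybb1 was 19.6% and 21.5% in FDM 1 and Control 1, 7.04% and 7.12% in Control 2 and Control 3, and 2.87% in FDM 3. Both chains therefore had their largest share in the libraries with the least crystallin and their smallest in FDM 3. Cryaa ran the other way, with 4.90% in FDM 1, 5.38% in Control 1, 28.2% in Control 2, 37.3% in Control 3 and 44.3% in FDM 3. Crybb2 was 0.980% in FDM 1, within 1.18% to 10.6% in Control 1, 24.3% in Control 2 (21.9 to 26.8), 12.0% in Control 3 and 18.4% in FDM 3 (18.2 to 18.6). The mix differed between Control 2 and Control 3 as well, since the level of Crybb2 was 3.90 times higher in Control 2 (2.97 to 5.20) and that of Cryba1 1.24 times (0.939 to 1.64).

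**Figure D3:**
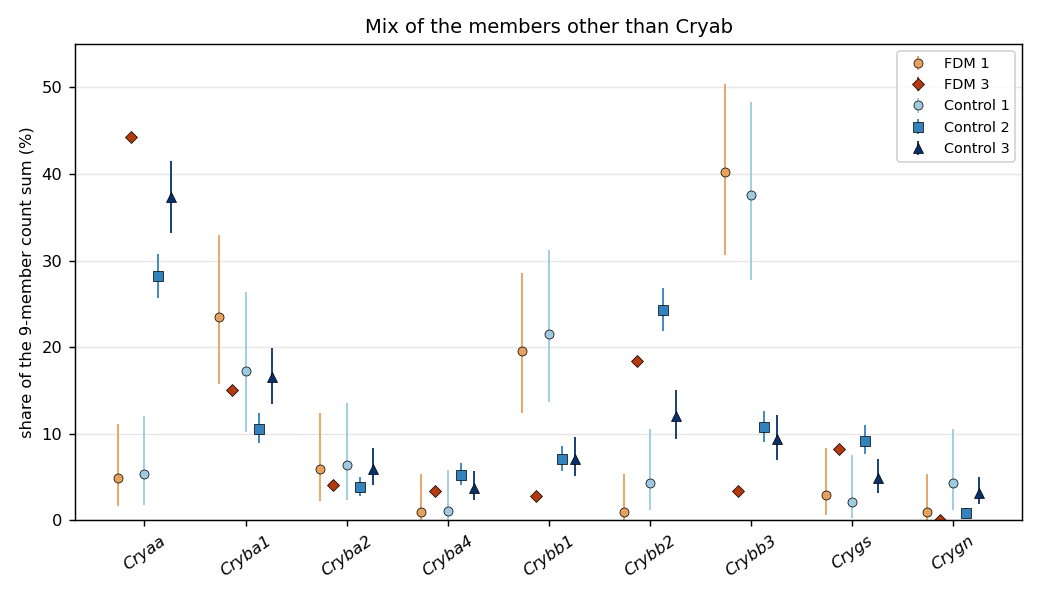
Share of the summed counts of the 9 members other than Cryab (percent) by library, with exact 95% binomial intervals for counting error. Crybb3 falls from 40.2% and 37.6% in FDM 1 and Control 1 to 3.34% in FDM 3, while Cryaa goes from 4.90% and 5.38% to 44.3%.

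Between the groups, the mean CPM was higher in FDM than in control eyes for 10 of 10 members. Cryaa averaged 489 ± 691 CPM (SD, n = 2) in FDM and 3.48 ± 3.06 CPM (n = 3) in control eyes, and Cryab 141 ± 164 and 28.3 ± 5.71 CPM. The SD of FDM was larger than its mean for both, as it was for every member. Taking FDM 1 alone against the controls left 0 of 10 members higher than the control mean. FDM 1 was below every control for 6 members and within the control range for Cryab, Cryba1, Crybb3 and Crygs. Of these 6, Cryaa, Cryba2, Cryba4 and Crybb1 had equal counts in FDM 1 and Control 1 (5, 6, 1 and 20). Against Control 1 they were thus lower in FDM 1 only through the scaling of the libraries. Against Control 2 and Control 3 their counts in FDM 1 were lower before any scaling. Crybb2 and Crygn each had 1 count in FDM 1 against 4 in Control 1. The median log2 fold change was 6.17 over the members and -0.0133 over all genes fitted. As the contrast chose the members, nothing is read from this difference.

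The study drew both eyes of mouse 1 and mouse 3, which allows each member to be set against the other eye of the same mouse. In mouse 1, FDM 1 was 1.01 to 1.20 times Control 1 for Cryab (95% interval), 1.08 times for Crybb3 (0.670 to 1.74) and 0.921 times for Crybb1 (0.470 to 1.80). The interval held a ratio of 1 for 9 of 10 members, with Cryab as the exception. In mouse 3, FDM 3 was higher than Control 3 for all 10 members, from 5.92 times for Crygn to 334 times for Crygs (228 to 512). Mouse 1 and mouse 3 thus differed, with a same-mouse ratio near 1 for the well counted members of mouse 1 and at least 5.92 in mouse 3, a difference that was not tested. On the normalized counts of the authors the lowest ratio in mouse 3 was 1.27, for Crygn, and the next 7.58, for Cryab. In these bulk samples more cells of a type and more RNA per cell cannot be told apart.

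The gamma crystallin cluster, Cryga, Crygb, Crygc, Crygd and Cryge on chromosome 1 with Crygf nearby, encodes proteins of the lens fibre core that are made mainly early in life. Its 6 genes summed to 8893 counts in FDM 3 and 5 in FDM 1, against 6, 959 and 36 in Controls 1 to 3. As a share of the gamma cluster plus the 9 members other than Cryab, this was 7.73% in FDM 3 (7.58 to 7.89), 43.7% in Control 2 (41.6 to 45.8) and 6.32% in Control 3 (4.46 to 8.64). The libraries with fewest counts gave 4.67% (FDM 1, 1.53 to 10.6) and 6.06% (Control 1, 2.26 to 12.7). Control 2 stood apart from all other libraries in this share, and FDM 3 did not.

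Gene by gene, Cryaa had 349 counts and Crygb 278 in Control 2, but 47021 and 2575 in FDM 3. FDM 3 was 11.0 times Control 2 for Crygb (9.70 to 12.5), 15.2 times for Crygc (13.4 to 17.4) and 17.1 times for Crygd (14.6 to 20.2). It was 2.88, 3.21 and 4.06 times Control 2 for Cryga, Cryge and Crygf. Cryaa, the 6 beta chains and Crygs had ratios of 31.6 to 160, so the gamma cluster and these members did not overlap in this ratio. Crygn, at 12.1 (6.31 to 26.0), and Cryab, at 9.38, fell among the gamma genes. Within the cluster 25.1% (Crygd) to 57.5% (Cryge) of 31-base words were shared with other genes, so reads may be split among its members. Its sum is less exposed to this than its single genes. For Cryba4, Crybb1, Crybb2, Crygs and Crygn 0 words were shared, and for Cryba2 and Crybb3 0.737% and 0.698%. Cryba1 shared 4.16%, and Cryaa shared 10.3%, all with 1 other annotated gene.

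**Figure D4:**
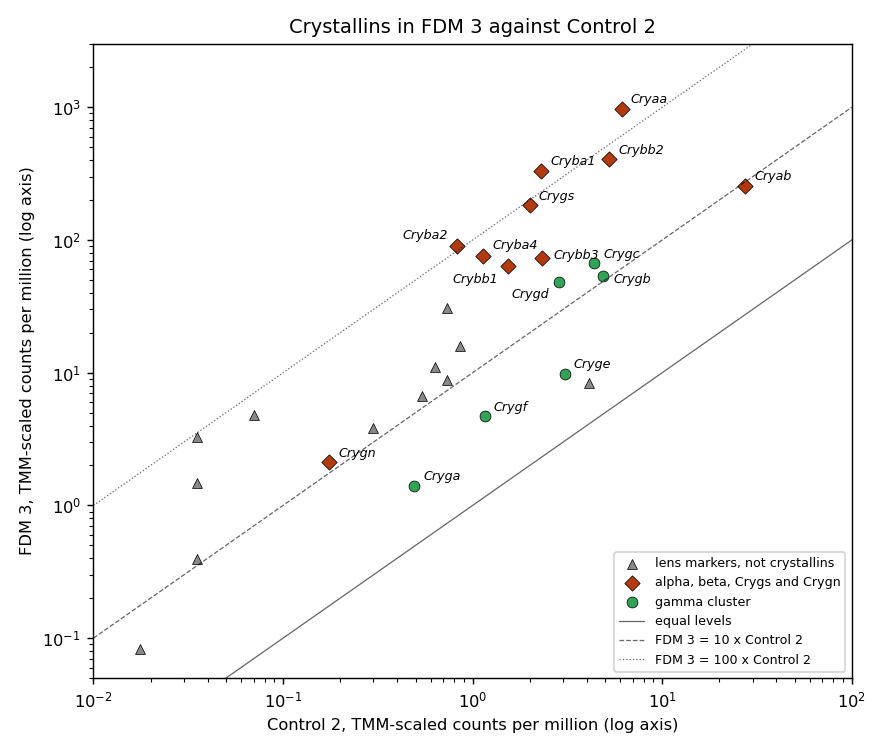
Level in FDM 3 against level in Control 2 (TMM-scaled CPM, both axes log) for the members, the gamma cluster and 12 lens markers that are not crystallins, with lines for equal levels and for FDM 3 at 10 and 100 times Control 2. Cryaa lies above the upper line (160 times), and Cryga, Cryge and Crygf lie at 2.88 to 4.06 times.

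In the fit over all genes (edgeR quasi-likelihood, FDM against control), 1.61% of 17432 genes had an unadjusted p under 0.05 and 0 passed after Benjamini-Hochberg adjustment (0%), against 3 with DESeq2. Of the gamma cluster, 2 of 6 had an unadjusted p under 0.05. Crygd had a log2 fold change of 4.46 ± 1.74 (SE, unadjusted edgeR p of 0.0366) and Crygc one of 4.37 ± 1.86 (unadjusted edgeR p of 0.0495), and neither passed after adjustment. Without FDM 3, 1 of the 6, Crygb, had enough counts to be fitted and 0 had an unadjusted p under 0.05 (background 1.15%). With the mouse as a block, 7.23% of all genes had an unadjusted p under 0.05 and 0.310% an adjusted p under 0.05, and of the gamma cluster 6 and 5 did, with Cryga as the exception at an edgeR adjusted p of 0.132. In that fit Control 2 has no partner and adds nothing to the difference between the eyes, and in mouse 1 each gamma gene had 0 to 3 counts in either eye, so these calls restate the level of FDM 3 over Control 3. As the gamma genes had been seen high in FDM 3 before they were listed, nothing is read from these counts.

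Other genes that carry the crystallin name or fold did not share the pattern, as none had its highest level in FDM 3. The Crybg genes encode large proteins with a beta-gamma crystallin domain outside the lens family. Of these, 0 of 3 had an unadjusted edgeR p under 0.05, against 1.61% of all genes, and the median log2 fold change was -0.0584. Crybg2 had 151 counts in FDM 3 and 142 to 180 elsewhere, and Crybg3 had 1404 counts in FDM 3, 1163 in FDM 1 and 1048, 1769 and 1299 in Controls 1 to 3. The enzymes and binding proteins named crystallin in other species (Cryz, Cryzl1, Cryzl2, Cryl1 and Crym) had 0 of 5, with a median of 0.00571. In lists this short such counts cannot be told apart from the share over all genes. Cryzl1 had 2525 counts in FDM 3 and 1967 to 3233 elsewhere, and Crym, a thyroid hormone binding protein, 2263 in FDM 3 and 2125 to 2330 elsewhere. The 5 genes summed to 131 to 137 CPM in all libraries, FDM 3 included.

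Small heat shock proteins related to the alpha crystallins were also counted. Of these, 6 of 7 could be fitted, all but Hspb9. An unadjusted edgeR p under 0.05 was found for 0 of them, against 1.61% of all genes, and the median log2 fold change was -0.131. Hspb6 had 4556 counts in FDM 3 and 4482 in FDM 1, against 4480, 4352 and 5039 in Controls 1 to 3, and Hspb8 had 332 in FDM 3 and 268 to 493 elsewhere. In FDM 3 both lay within the range of the other libraries. Without FDM 3, 1 of 6 had an unadjusted p under 0.05, against 1.15% of all genes. This was Hspb2, at -2.36 ± 0.60 for FDM 1 against the controls (unadjusted edgeR p of 0.00464), which rests on 4 counts in FDM 1 and did not pass after adjustment. With the mouse as a block 2 of 6 had an unadjusted p under 0.05, against 7.23% of all genes, and none an adjusted p under 0.05, Hspb6 at -0.14 ± 0.06 (edgeR adjusted p = 0.674) and Hspb7 at -1.63 ± 0.38 (adjusted p = 0.291).

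The transcription factors that drive crystallin genes in lens are in part also retinal genes. Of 10, 7 could be fitted, and 0 of these had an unadjusted edgeR p under 0.05, against 1.61% of all genes. Their median log2 fold change was -0.0650. Pax6, needed for lens and retina alike, had 16623 counts in FDM 3, 14796 in FDM 1 and 13516, 24984 and 18759 in Controls 1 to 3. Prox1, which also acts in horizontal cells, had 6442 in FDM 3 and 5295 to 9664 elsewhere. The 3 that were too low to fit, Sox1, Pitx3 and Foxe3, had their highest counts in FDM 3, with 10, 11 and 2, against 1 to 3, 0 to 1 and 0 in the other libraries. With the block, Sox2 had a log2 fold change of -0.20 ± 0.06 (unadjusted edgeR p of 0.00952, edgeR adjusted p of 0.561).

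Lens genes that are not crystallins shared the high level of the members in FDM 3. All 12 listed were highest in FDM 3, with a summed level of 95.2 CPM there, 9.85 CPM in FDM 1 and 8.10 to 9.04 CPM in the controls, and Lim2, Dnase2b and Lctl were at 0 in a library. Mip, the water channel of lens fibres, had 1469 counts in FDM 3, 29 in FDM 1 and 22, 42 and 35 in Controls 1 to 3. Lenep, a lens epithelial gene, had 401 in FDM 3 and 234 to 306 elsewhere. Outside FDM 3 the sum was mostly Lenep. The other 11 markers summed to 86.8 CPM in FDM 3 and 2.79 CPM in FDM 1, and 8 of 12 markers were higher in Control 2 than in Control 1. The members other than Cryab summed to 21.7 CPM in Control 2 and 2.33 CPM in Control 1. The part of lens RNA in the FDM 3 levels was not tested.

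Over the whole table, 18 of 13531 genes with more than 100 counts in FDM 3 were at least 10 times higher there than in the highest other library. They were 8 members, 3 genes of the gamma cluster and 7 of the listed lens markers, with 0 genes outside the lists. The lists were chosen with earlier results of these data known. By the same limits 13 genes stood out in Control 3, 4 in Control 2, 1 in FDM 1 and 0 in Control 1. Outside the members and related lists, the genes with the largest ratios in FDM 3 included Lctl (43.4), Mip (41.4), Grifin (28.8), Bfsp1 (18.5), Gm52993 (12.2), Lgsn (12.1), Bfsp2 (9.50), Gm45062 (3.50) and Gm9762 (3.41). Mip, Bfsp1 and Bfsp2 encode the fibre water channel and the beaded filament proteins, and Gm52993 is the name used here for the gene identifier matched to Lim2. Likeness is given as this ratio because 5 libraries are too few for a correlation.

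Other cell types moved differently from the members. The 6 genes of the retinal pigment epithelium summed to 192 CPM in Control 2 and 156 CPM in Control 3, to 54.7 CPM in Control 1 and 51.7 CPM in FDM 1, and to 2019 counts in FDM 3 against 2241 in the shallower FDM 1. Control 2 and Control 3 were thus higher than FDM 1 and Control 1 in both these genes and the members other than Cryab (21.7 and 11.2 against 2.35 and 2.33 CPM), and FDM 3 was lowest in the first and highest in the second. Ttr and Rdh5 had the highest mean levels, with 6615 and 1401 counts in Control 2 and 1210 and 412 in FDM 3. The 4 corneal epithelium genes summed to 0.738 to 1.56 CPM, with Krt14 at 0 in a library and Krt12 and Aldh3a1 at 35 and 21 counts in FDM 3, against 24 to 55 and 6 to 17 elsewhere. Summed levels were 3074 to 3258 CPM for the 6 glial genes and 44.6 to 51.1 CPM for the 5 oligodendrocyte genes, among them Glul (2390 to 2581 CPM), Rlbp1 (381 to 422 CPM) and Mbp (32.6 to 35.1 CPM). The part of pigment epithelium in the Control 2 and Control 3 levels was not tested.

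The normalized table of the authors scales each gene in each library by a factor of its own. Divided by the median factor of the library, this was 0.930 to 1.11 for the central 95% of 7559 well counted genes. Cryaa, Cryab, Cryba4, Crybb1, Crybb2 and Crygs stayed within 0.945 to 1.06. Cryba1 had a relative factor of 1.32 in FDM 1, 1.20 in Control 1, 0.990 in Control 3, 0.858 in Control 2 and 0.748 in FDM 3, so it fell as the level of the gene rose except that FDM 1 and Control 1 were in the reverse order of level. Cryba2 and Crybb3 stood at 1.28 and 1.30 in FDM 1 and at 0.883 to 1.03 elsewhere. Crygn had 1.30 to 1.39 in 4 libraries and 0.297 in Control 3. On the scale of the authors, Crygn was 71.9 in FDM 3 and 56.5 in Control 3, against 102 and 17 counts in the deposited count table. Whether FDM 3 stands far above Control 3 for Crygn therefore depended on the table used. For Cryba1 and Crygn, GENCODE M21 lists 2 transcripts each, of 778 and 1377 bases for Cryba1 and of 221 and 768 bases for Crygn, and the transcripts themselves were not counted in the deposited tables.

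**Figure D5:**
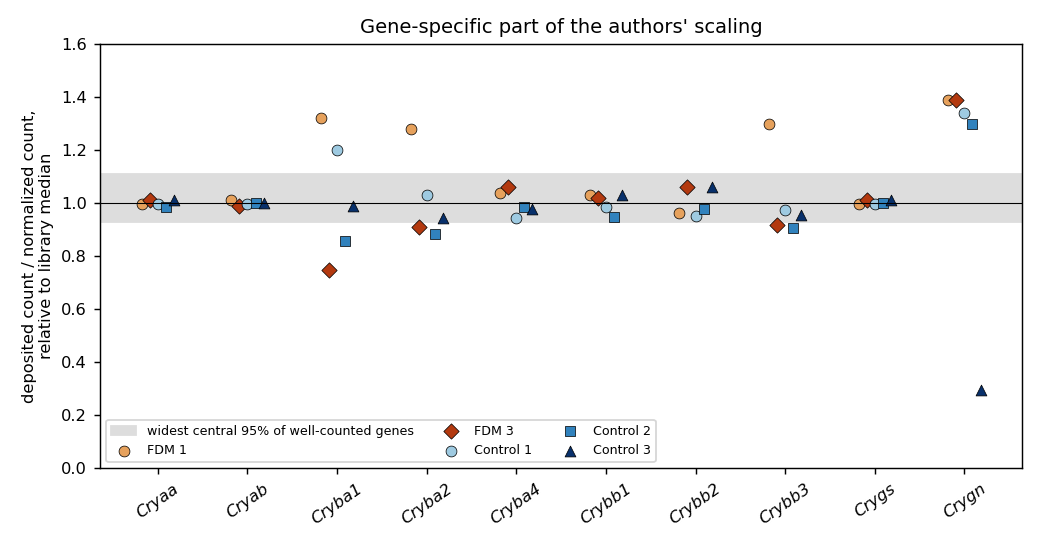
Deposited count divided by the authors' normalized count for each member and library, relative to the median of that ratio in the library. The shaded band spans 0.930 to 1.11, the widest central 95% of 7559 genes with over 1000 counts in every library. Crygn in Control 3 lies at 0.297 and Cryba1 runs from 1.32 in FDM 1 to 0.748 in FDM 3.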

How the data were processed

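Poly-A RNA of mouse retina was sequenced from 5 libraries. The authors trimmed reads with Trimmomatic 0.39, quantified transcripts with Salmon 1.10.1 and normalized counts with DESeq2 in R 4.3.1 (versions in the submitters' processing notes, build GRCm38), and deposited estimated counts per gene and a second table of normalized counts, a signal scaled per gene and library. A further FDM library, which the study set aside for duplication, was not analysed here. Estimated counts were rounded. Of 2 rows with the same identifier, all 0, 1 was dropped, and 0 sample columns were left over. Members, lists and limits were chosen with earlier results of these data known.

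The 17432 genes past a minimum (over 10 counts, in 2 libraries or more) were fitted with edgeR 4.0.16 (quasi-likelihood, TMM factors 0.984 to 1.01, R 4.3.3), FDM against control without a block. DESeq2 1.42.0 was an alternative. The 3 mice are separate animals, and FDM 1 with Control 1 and FDM 3 with Control 3 came from the same mouse by the mouse list of the study, so the mouse was also fitted as a block. Deviations from the group means correlated at 0.258 and 0.125 in these same-mouse pairs and at 0.155 between FDM 3 and Control 2, of another mouse. With 2 FDM libraries their deviations are mirror images, so FDM 1 with Control 2 gave -0.155. These values are therefore not separate evidence on the pairing. The edgeR step was tested on simulated data. Poisson ratios and binomial shares have exact 95% intervals (SciPy), a count of 0 was taken as at most 3 counts, and no 2 libraries agreed within sampling noise. Exon length was the union of GENCODE M21 exons, which 33585 of 33635 identifiers matched. Named were all members, the genes of each related list with an unadjusted p under 0.05 and its 2 highest in mean CPM, the 10 genes outside the members and related lists with the largest ratio of FDM 3 to the highest other library among those with more than 100 counts in FDM 3, and of the marker lists the genes at 0 and the 2 highest. Genes named under the mouse block and the 3 factors too low to fit were added after their values were seen. Some genes that the rule names are not reported here.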

Additional observations from a re-analysis of the deposited data

How the results depend on the processing

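Counts of genes with an unadjusted p under 0.05 rest on few libraries. The 281 genes became 172 with DESeq2, 498 with no count filter, 1261 with the mouse as a replicate block and 439 with the block by label number, and 146 (without Control 3) to 946 (without Control 1) when 1 library was left out. Without FDM 1 and without Control 2 they were 170 and 535. Of the related lists, the 2 genes became 0 with DESeq2, 1 with library totals only, 0 with more than 10 counts required in all libraries, 9 with the mouse block and 6 with the block by label number, and 0 (without Control 3) to 6 (without FDM 1) when 1 library was left out, with 1 without FDM 3 or Control 1. The cause of these shifts was not tested.

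Leaving out 1 library, the members that follow 1 library were 4 (without FDM 3) to 10, steady members 0 to 1 (1 without FDM 3), and members with a higher FDM mean 0 (without FDM 3) to 10. The limits of 5 and 20 times gave 10 and 8 members that follow 1 library. The share of Cryaa in FDM 3, 39.7% of counts, was 30.8% per length of joined exons and 37.8% with the authors' normalized counts. It was 36.9% with the gamma cluster in the denominator. The share of Cryab in FDM 1 was 91.1% to 92.8% under these settings. Depth limits all members but Cryab in FDM 1 and Control 1, where they had 1 to 41 counts.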
